A study of Homo sapiens with 6 samples.

Results

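Megakaryocyte and platelet genes around ITGA2B were examined in K562 cells after knockdown (KD) of PCBP1, an RNA-binding protein that recognizes C-rich RNA and also carries iron in the cytosol. The genes were ITGA2B and ITGB3 (the platelet integrin), GP1BA, GP1BB and GP9 (subunits of the platelet receptor for von Willebrand factor), PF4 (an alpha granule chemokine), FLI1 and RUNX1 (transcription factors) and TUBB1 (the beta-tubulin of the platelet marginal band). They made up 9 of the 62252 annotated genes in the files, with 48 of the 251612 matched transcripts. ITGA2B was chosen because it fell strongly in these libraries, so its values and those of its transcripts are given as a description, with no test. The 8 other genes were added for their role, and their own contrast was tested.

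K562 is an established human erythroid leukemia line that can also take on megakaryocytic features. Cells were transduced with lentivirus from pLKO.1 plasmids that carried an shRNA against luciferase (shCtrl) or an shRNA against PCBP1 (shPCBP1), and both groups were selected in puromycin before collection. Poly-A RNA was sequenced in 3 libraries per group, to ask how loss of PCBP1 alters the transcriptome. A single hairpin was used against PCBP1, and both groups carried an integrated hairpin and puromycin resistance. Whether the libraries of a group came from separate transductions was not given, so p-values measure only the spread between these libraries, which may be technical.

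In platelets and their precursors, ITGA2B (αIIb) and ITGB3 (β3) pair into the fibrinogen receptor that lets platelets aggregate, and β3 can also pair with αV, encoded by ITGAV. GP1BA, GP1BB and GP9 encode chains of the GPIb-IX-V complex, which holds platelets on von Willebrand factor at sites of injury. RUNX1, FLI1, GATA1 and partner proteins bind the regulatory DNA of such genes in megakaryocytes, and erythroid and megakaryocytic cells share a common progenitor.

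The 6 libraries held between 67066747 and 140522444 estimated counts. PCBP1 itself fell to 18.1% of its shCtrl level, with TPM (a level scaled by transcript length and library total) between 305.1 and 327.8 in shCtrl and between 52.0 and 58.5 in shPCBP1. The first principal component of log2 normalized counts held 29.4% of the variance and separated the groups. Among 14 erythroid markers, all had an adjusted p, 3 rose and 1 fell, where 17.7% of all genes tested rose and 13.5% fell. Their summed TPM lay between 34250 and 41975 in shCtrl and between 39471 and 41557 in shPCBP1. Of other lineages, only 3 of 6 lymphoid, 2 of 6 monocyte and granulocyte and 1 of 5 endothelial markers were tested, and none of those passed. Summed TPM was 100.2 to 118 in shCtrl and 91.3 to 104 in shPCBP1 for 6 lymphoid markers, mainly CD3D and PTPRC, 46.2 to 52.1 and 45.5 to 53.3 for 6 monocyte and granulocyte markers, mainly LYZ, and 0.863 to 1.199 and 0.728 to 1.55 for 5 endothelial markers, of which KDR was listed at 0 in every library. The megakaryocytic label held only in part. FLI1 and GP9 stayed under 0.1 TPM in every library, PF4 was detected in a single library, and GP1BA was near 0.5 TPM. In bulk RNA, fewer cells of a kind and less RNA per cell cannot be told apart.

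Promoter sequences of members were taken from a set of RefSeq promoters on GRCh38.p14. The set used here held 5 of the 9 genes (ITGA2B, GP1BB, GP9, RUNX1 and TUBB1). Shown here are the 250 bases before the start of ITGA2B, which fell, of GP1BB and RUNX1, which rose, and of GP9, which was listed at 0. Capitals mark matches, on either strand, to the GATA words (AGATAA with its variant AGATAG, or TGATAA with its variant TGATAG), to the ETS word GGAAG and to the RUNX word TGTGGT. The 4 windows are chr17:44389650-44389899 (minus strand), chr22:19723289-19723538 (plus strand), chr21:34888700-34888949 (minus strand) and chr3:129060529-129060778 (plus strand), in the order in which they are printed.
ITGA2B: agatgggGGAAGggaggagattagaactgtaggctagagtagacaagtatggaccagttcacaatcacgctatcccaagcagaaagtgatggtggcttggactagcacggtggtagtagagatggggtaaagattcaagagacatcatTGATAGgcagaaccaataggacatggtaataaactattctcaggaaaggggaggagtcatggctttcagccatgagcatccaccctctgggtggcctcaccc
GP1BB: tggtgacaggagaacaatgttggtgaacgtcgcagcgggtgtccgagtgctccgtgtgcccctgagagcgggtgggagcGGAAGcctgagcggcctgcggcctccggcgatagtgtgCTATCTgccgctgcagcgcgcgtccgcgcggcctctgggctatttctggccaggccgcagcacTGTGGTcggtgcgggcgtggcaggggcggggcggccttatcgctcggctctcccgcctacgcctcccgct
RUNX1: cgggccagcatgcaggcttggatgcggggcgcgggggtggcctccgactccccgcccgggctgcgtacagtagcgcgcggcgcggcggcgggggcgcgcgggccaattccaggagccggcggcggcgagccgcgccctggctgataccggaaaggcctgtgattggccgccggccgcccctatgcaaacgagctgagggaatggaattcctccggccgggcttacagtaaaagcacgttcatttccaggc
GP9: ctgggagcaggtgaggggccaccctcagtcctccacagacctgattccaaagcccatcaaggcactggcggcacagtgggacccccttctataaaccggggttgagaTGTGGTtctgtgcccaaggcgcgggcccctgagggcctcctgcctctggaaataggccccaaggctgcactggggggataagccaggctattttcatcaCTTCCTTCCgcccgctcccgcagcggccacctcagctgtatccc
The ITGA2B window held 1 GATA word, TGATAG, 102 bases before the start, and 1 ETS word 243 bases before it. The GP1BB window held a word of each kind, GATA at 133, ETS at 171 and RUNX at 70 bases before its start. GP9 had 2 overlapping ETS words at 44 and 40 bases and a RUNX word at 143 bases, the RUNX1 window had 0 matches, and TUBB1 (not shown) had 1 ETS word at 138 bases. Of all 35116 promoters of the same length, 22.3% held a GATA word, 65.1% the ETS word and 11% the RUNX word. GC content was 48.8% for ITGA2B, 70.0% for GP1BB, 71.2% for RUNX1 and 62.8% for GP9, against a median of 58.0% over all promoters.

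ITGA2B (ENSG00000005961, chr17:44372180-44389649, GRCh38, minus strand) was at 13.8, 17.04 and 13.1 TPM in shCtrl and at 3.42, 3.29 and 5.09 TPM in shPCBP1. Every shPCBP1 library was below every shCtrl library. In counts normalized by DESeq2 size factors, the gene had 2027, 2669 and 2415 in shCtrl and 456.5, 603.0 and 831.8 in shPCBP1. The mean was 2371 ± 323 in shCtrl and 630.4 ± 189 in shPCBP1 (SD, n = 3). On the log2 scale the change was -1.91 (SE 0.274), which left 26.6% of the shCtrl level. Among 69 protein-coding genes whose normalized counts averaged 100 or more and that fell at an adjusted p under 0.05 and by over 1 on the log2 scale, ITGA2B ranked 5th by fold change. Of all 17095 genes tested, of any type and with a mean count over 10, 0.989% fell at the same p and fold. Since ITGA2B was chosen on this fall, its rank and that share restate the choice and lend it no support. The gene just above it in rank was GALK1 (log2 fold change -1.95), the galactokinase gene on the same chromosome, and just below it came USH1G (-1.89), a scaffold gene known from inner ear hair cells.

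**Figure D1:**
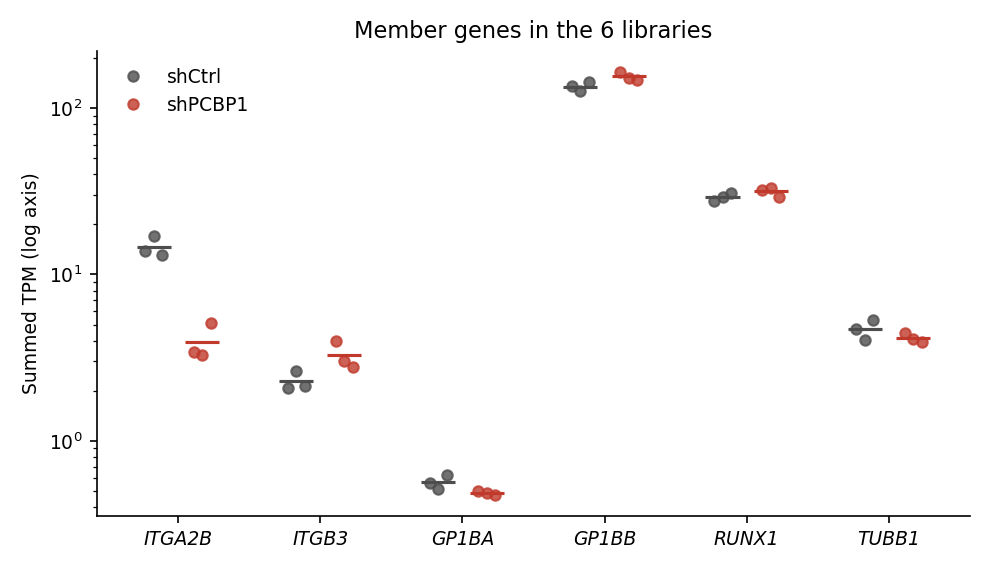
Summed TPM (log axis) of the 6 tested genes in each library, with shCtrl in grey and shPCBP1 in red; points are libraries and bars are means of 3. ITGA2B lies between 13.1 and 17.04 TPM in shCtrl and between 3.29 and 5.09 TPM in shPCBP1, without overlap. GP9, PF4 and FLI1, at or near 0, are not drawn.

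The partner subunit moved the other way. ITGB3 (ENSG00000259207, chr17:47253827-47313743, plus strand) counted 979.7, 1136 and 1012 after normalization in shCtrl libraries, against 1525, 1396 and 1342 in shPCBP1, with no overlap between the groups, a pattern that 23.7% of genes tested showed upward and 20.5% downward. It rose by 0.45 on the log2 scale (SE 0.0941, DESeq2 adjusted p 1.84e-05), to 136.6% of shCtrl. In TPM it was 2.09, 2.65 and 2.14 in shCtrl and 4.004, 3.03 and 2.79 in shPCBP1. The highest of these TPM values, in shPCBP1 replicate 1, included 0.881 TPM from ITGB3-203, a short transcript annotated for nonsense-mediated decay that rested on 9 estimated counts. The full-length ITGB3-201 alone was at 1.98, 2.28 and 2.05 TPM in shCtrl and 2.97, 2.75 and 2.79 TPM in shPCBP1. ITGB3 overlaps a readthrough gene, ENSG00000259753, on the same strand, which was listed at 0.

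Because TPM is scaled by length, the 2 subunits could be compared within a library. The ratio of ITGA2B to ITGB3 TPM was 6.61, 6.44 and 6.12 in shCtrl and 0.855, 1.09 and 1.83 in shPCBP1. Over all transcripts, ITGA2B TPM was thus several times that of ITGB3 in each shCtrl library and within a factor of 1.83 of it in each shPCBP1 library. The ratio of the most abundant transcript of each gene gave 2.79, 3.29 and 3.35 in shCtrl and 0.391, 0.575 and 0.721 in shPCBP1. By that measure ITGA2B was below ITGB3 in each shPCBP1 library. No test was run on either ratio, since it contains the gene that was chosen on its fall.

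**Figure D2:**
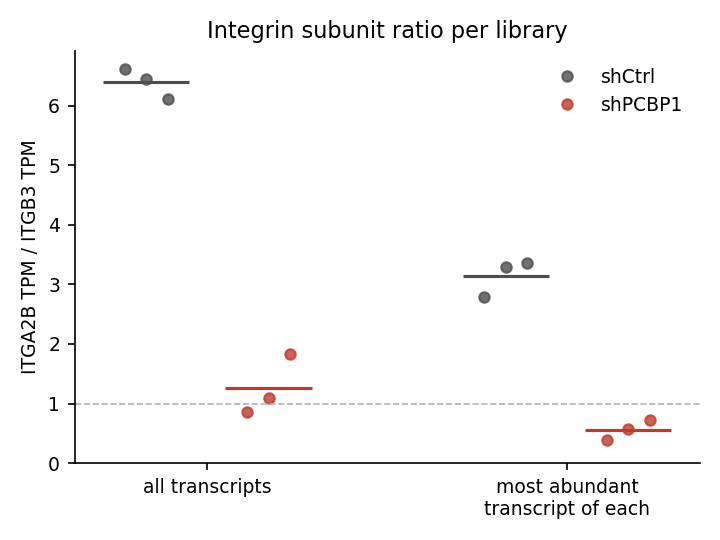
Ratio of ITGA2B TPM to ITGB3 TPM in each library, over all transcripts (left) and over the most abundant transcript of each gene (right); points are libraries, bars are means of 3 and the dashed line marks a ratio of 1. Means were 6.39 in shCtrl and 1.26 in shPCBP1 over all transcripts, and 3.14 and 0.562 for the most abundant transcripts.

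In summed TPM, the place of ITGA2B among the integrin alpha subunits changed with its level. In shCtrl the order by TPM was ITGA5 (38.6 to 50.8), the fibronectin receptor subunit, then ITGAE (20.7 to 26.6), ITGA2B (13.1 to 17.04), ITGAV (9.23 to 10.8) and ITGA7 (5.45 to 8.87), a laminin receptor subunit. No neighbours in that order overlapped between libraries. In shPCBP1 the order was ITGA5 (42.6 to 44.7), ITGAE (22.8 to 25.8), ITGAV (8.22 to 9.96), ITGA7 (5.85 to 6.72) and ITGA2B (3.29 to 5.09), again without overlap of neighbours. Summed TPM gives short transcripts more weight than counts do, so the order depends on the unit. The full-length ITGA2B-201 alone was at 5.53 to 7.495 TPM in shCtrl, below the summed TPM of ITGAV. Normalized counts in shCtrl averaged 824.3 for ITGAE, 2371 for ITGA2B and 4664 for ITGAV. Of the 24 other integrin genes, 13 were tested. Of these, 7.69% rose and 7.69% fell, both below the 17.7% and 13.5% of all genes tested. The rest had too few counts for an adjusted p, so these shares leave them out. Among the rest, ITGA2, ITGA8, ITGB2 and ITGAL, all under 1 TPM, fell without overlap in normalized counts. Their log2 fold changes were -3.30 (SE 1.045), -2.83 (SE 1.804), -2.07 (SE 0.617) and -1.19 (SE 0.522). ITGA9, the only one with a higher estimate, stood at 0.60 (SE 0.833) with overlap. A fall without overlap was seen in 20.5% of genes tested. ITGB1, the common beta subunit, rose by 0.08 (SE 0.0320, DESeq2 adjusted p 0.0461) and ITGB7, a beta subunit of lymphocytes, fell by 0.89 (SE 0.363, DESeq2 adjusted p 0.0452), the latter at under 1 TPM in every library. ITGAV, the other partner of β3, stood at -0.12 on the log2 scale (SE 0.0589, DESeq2 adjusted p 0.0935).

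Of the 10 annotated ITGA2B transcripts, 9 had a lower mean TPM in shPCBP1 and ITGA2B-202 was listed at 0 throughout. In 6 of them every shPCBP1 library was below every shCtrl library, a pattern seen in 10.7% of all 105847 transcripts tested (9.74% in the other direction). Among the 6, ITGA2B-204 had no adjusted p and so lies outside those 105847. All belong to a gene chosen on its fall, so the share is given for scale only. The full-length coding transcript ITGA2B-201 (ENST00000262407, 30 exons) was at 5.53, 7.495 and 6.86 TPM in shCtrl and at 1.16, 1.58 and 2.01 TPM in shPCBP1. Among transcripts annotated as retaining an intron, ITGA2B-203 was at 2.44, 1.65 and 1.91 TPM in shCtrl and 0.352, 0.169 and 0.326 TPM in shPCBP1. ITGA2B-207 was at 1.77, 1.66 and 1.71 TPM and then 0.590, 0.219 and 0.902 TPM. ITGA2B-206 was at 1.54, 1.53 and 0.942 TPM and then 0.531, 0.486 and 0.613 TPM. The coding transcripts and those annotated as retaining an intron thus shared the direction of the gene.

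**Figure D3:**
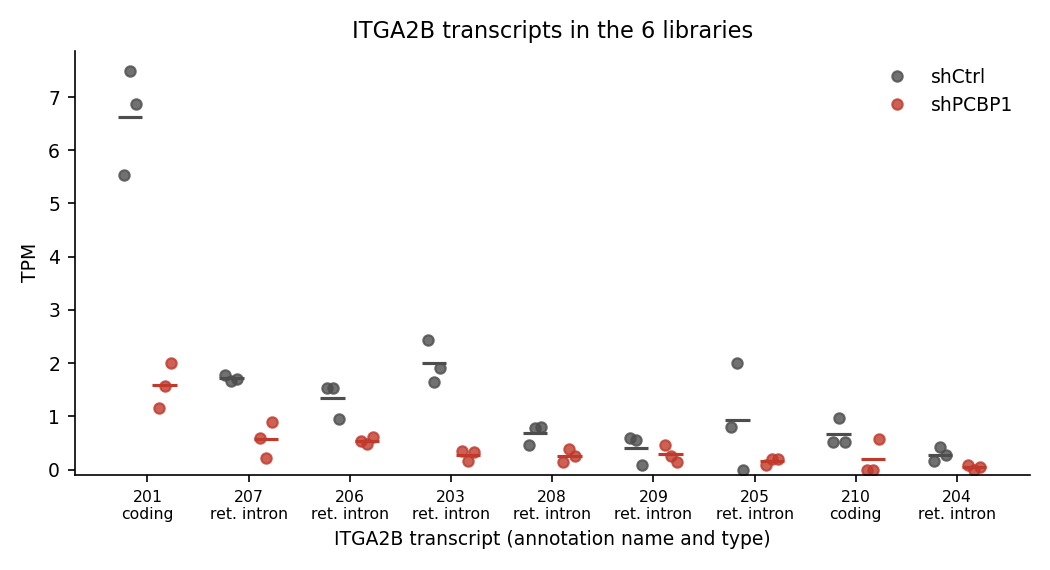
TPM of the 9 detected ITGA2B transcripts in each library, named as in the annotation (201 to 210) with their annotated type; points are libraries and bars are means of 3. The coding transcript 201 lies between 5.53 and 7.495 TPM in shCtrl and between 1.16 and 2.01 TPM in shPCBP1, and 203, 206 and 207 are also lower without overlap.

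The weight of the 7 transcripts annotated as retaining an intron depended on the unit. They held 50.05% ± 6.24 of summed ITGA2B TPM in shCtrl and 55.75% ± 9.08 in shPCBP1 (SD, n = 3). They held 16.4% of the estimated counts in shCtrl and 22.9% in shPCBP1. ITGA2B-203, for example, rested on 87, 39 and 74 estimated counts in shCtrl and on 8, 4 and 6 in shPCBP1. The shares of the groups overlapped in both units. In TPM the library values were 56.1%, 50.3% and 43.7% in shCtrl and 66.1%, 52.0% and 49.1% in shPCBP1.

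The full-length transcript has 29 introns, of which 7 are spanned whole by an exon of another ITGA2B transcript. ITGA2B-203 and ITGA2B-209, though annotated as retaining an intron, span none of them whole. The shares above therefore follow the annotation and do not measure retained introns. Intron 5 is spanned by ITGA2B-207 and intron 13 by ITGA2B-206, and both are printed on the strand of the gene. Those transcripts were among the 4 with the largest mean share of ITGA2B TPM. ITGA2B-207 rested on 39, 24 and 39 estimated counts in shCtrl and on 9, 3 and 10 in shPCBP1. ITGA2B-208, which spans introns 26 to 28, held more counts than ITGA2B-207, with 163, 177 and 315 in shCtrl and 35, 83 and 47 in shPCBP1. The printed introns lie at chr17:44385210-44385285 and chr17:44380646-44380878 (GRCh38, minus strand). Capitals mark runs of 3 or more C, the kind of sequence that PCBP1 is known to bind in RNA.
ITGA2B intron 5: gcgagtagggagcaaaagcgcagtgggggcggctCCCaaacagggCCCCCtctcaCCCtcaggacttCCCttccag
ITGA2B intron 13: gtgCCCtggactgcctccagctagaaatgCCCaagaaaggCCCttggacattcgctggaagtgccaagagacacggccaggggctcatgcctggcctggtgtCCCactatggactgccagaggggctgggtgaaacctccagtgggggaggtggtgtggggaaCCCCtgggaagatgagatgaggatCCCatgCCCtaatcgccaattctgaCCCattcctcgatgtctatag
Intron 5 has 4 such runs in 76 bases and is 35.5% C, and intron 13 has 8 in 233 bases and is 27.0% C. Over the 29 introns the share of C ranged from 18.3% to 51.2%, with a median of 27.7%, so neither stood at the edge of that range. The other spanned introns, 8, 10, 26, 27 and 28, are 27.9%, 18.8%, 24.8%, 21.1% and 21.3% C. The runs are a description of the sequence and not of binding.

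Of the 8 other genes, 5 had enough counts for a test. ITGB3, GP1BB and RUNX1 rose, 0 fell at an adjusted p under 0.05, and GP1BA and TUBB1 did not pass. Over all genes tested, 17.7% rose and 13.5% fell at the same threshold. The median log2 fold change was 0.25 over the 5 and 0.00 over all genes tested.

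GP1BB (ENSG00000203618, chr22:19723539-19724771, plus strand), the beta chain of GPIb, was the most abundant of the 9 genes by TPM. It was at 135.5, 125.8 and 142.3 TPM in shCtrl and 164.8, 150.9 and 148.2 TPM in shPCBP1, with no overlap. It rose by 0.36 on the log2 scale (SE 0.0575, DESeq2 adjusted p 1.41e-08). GP1BB overlaps the 3' end of SEPTIN5, a septin of vesicle release, and the readthrough gene ENSG00000284874, all on the same strand, so reads could be split between them and the estimate is uncertain. SEPTIN5 rose by 0.23 (SE 0.0470, DESeq2 adjusted p 7.55e-06) and the readthrough gene by 0.66 (SE 0.211, DESeq2 adjusted p 0.00755). All 3 overlapping genes thus rose.

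The other chains of the same receptor were scarce. GP1BA (ENSG00000185245, chr17:4932277-4935023, plus strand), the chain that binds von Willebrand factor, was at 0.561, 0.513 and 0.621 TPM in shCtrl and 0.502, 0.484 and 0.476 TPM in shPCBP1. Its log2 fold change was -0.18 (95% interval -0.73 to 0.36, DESeq2 adjusted p 0.682). Normalized counts of the groups overlapped, although the TPM values did not. GP9 (ENSG00000169704, chr3:129060779-129062406, plus strand) had 0 estimated counts in all 6 libraries. A count of 0 allows up to 3 counts, or between 0.0214 and 0.0447 CPM (counts scaled to library size), in a library, for counting error only. By these estimates, GP1BB RNA was present without detectable GP9 and far above GP1BA in TPM, in both groups. The GP1BB level remains uncertain, since its reads could be split with the overlapping genes.

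PF4 (ENSG00000163737, chr4:73980811-73982027, minus strand) had 7 estimated counts in shCtrl replicate 1, all on a transcript annotated for nonsense-mediated decay, and 0 in the other 5 libraries. FLI1 (ENSG00000151702, chr11:128686535-128813267, plus strand), an ETS factor of megakaryocytes, had 3 and 1 estimated counts in shPCBP1 replicates 1 and 2 and 0 in the other 4 libraries. Of its 10 annotated transcripts, 8 were at 0 throughout. A difference in GP9, PF4 or FLI1 was not detectable at this depth.

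RUNX1 (ENSG00000159216, chr21:34787801-36004667, minus strand), a runt-domain factor of blood stem cells and megakaryocytes, counted 7367, 7639 and 8164 after normalization in shCtrl libraries, against 9375, 9359 and 8824 in shPCBP1. The groups did not overlap, and RUNX1 rose by 0.25 (SE 0.0494, DESeq2 adjusted p 5.16e-06). In TPM the groups overlapped, at 27.6, 29.3 and 30.6 in shCtrl and 32.2, 33.1 and 29.2 in shPCBP1. With offsets for the average transcript length of each library, the log2 fold change was 0.13 and no longer passed (DESeq2 adjusted p 0.171).

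Within RUNX1, the shares of single transcripts were compared. RUNX1-202 (ENST00000344691), which starts within a few bases of the start site behind the promoter window printed above and held the largest TPM share in both groups, was at 7.93, 8.35 and 8.47 TPM in shCtrl and 11.1, 11.4 and 10.2 TPM in shPCBP1. Its share of RUNX1 TPM was 28.8%, 28.6% and 27.6% in shCtrl and 34.4%, 34.3% and 34.8% in shPCBP1, a difference of 6.18 percentage points without overlap (exact permutation test, two-sided, p 0.1, the smallest that 3 against 3 libraries can give). RUNX1-203, from the same start site, was at 7.14, 7.94 and 8.33 TPM in shCtrl and 7.56, 6.70 and 7.90 TPM in shPCBP1, with overlap. RUNX1-204 averaged 3.77 and 3.96 TPM and RUNX1-205 averaged 3.10 and 3.28 TPM in shCtrl and shPCBP1, also with overlap. The pair of transcripts at the shared start site (position 34888690) held 55.1% ± 0.541 of RUNX1 TPM in shCtrl and 58.1% ± 3.63 in shPCBP1 (SD, n = 3), and the 6 transcripts from the distal start sites held 13.8% ± 2.99 and 12.3% ± 1.55.

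TUBB1 (ENSG00000101162, chr20:59019429-59026654, plus strand) was at 4.72, 4.06 and 5.34 TPM in shCtrl and 4.47, 4.07 and 3.94 TPM in shPCBP1. The groups overlapped. The log2 fold change was -0.17 (95% interval -0.40 to 0.05, DESeq2 adjusted p 0.273), so a loss of the size seen for ITGA2B lay outside its interval.

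Transcripts of the 8 other genes were also tested singly. Of 38, 16 had an adjusted p, and DESeq2 called 3 higher (ITGB3-201, GP1BB-201 and RUNX1-202) and 1 lower (ITGB3-202), where 4.98% of all transcripts tested were called higher and 4.29% lower. The edgeR quasi-likelihood test called 0 of these transcripts in either direction, with adjusted p-values of 0.136 for ITGB3-201, 0.152 for GP1BB-201, 0.0863 for RUNX1-202 and 0.297 for ITGB3-202. It called 0.217% of all transcripts higher and 0.327% lower. ITGB3-202 had 9, 16 and 15 estimated counts in shCtrl and 0 in each shPCBP1 library. The transcript calls therefore rested on the choice of test, unlike the gene calls for ITGB3, GP1BB and RUNX1, which edgeR made as well.

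The wider platelet and megakaryocyte programme was read from 6 lists of 102 genes that leave out the 9. Of 78 tested, 18 rose (23.1%) and 25 fell (32.1%), beside 17.7% and 13.5% of all genes tested. Small changes pass more readily in abundant genes, such as FLNA at -0.10 (SE 0.0303) with a mean normalized count of 129422. The lists here and below were not matched to all genes for level. The median log2 fold change was -0.07, beside 0.00 over all genes.

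**Figure D4:**
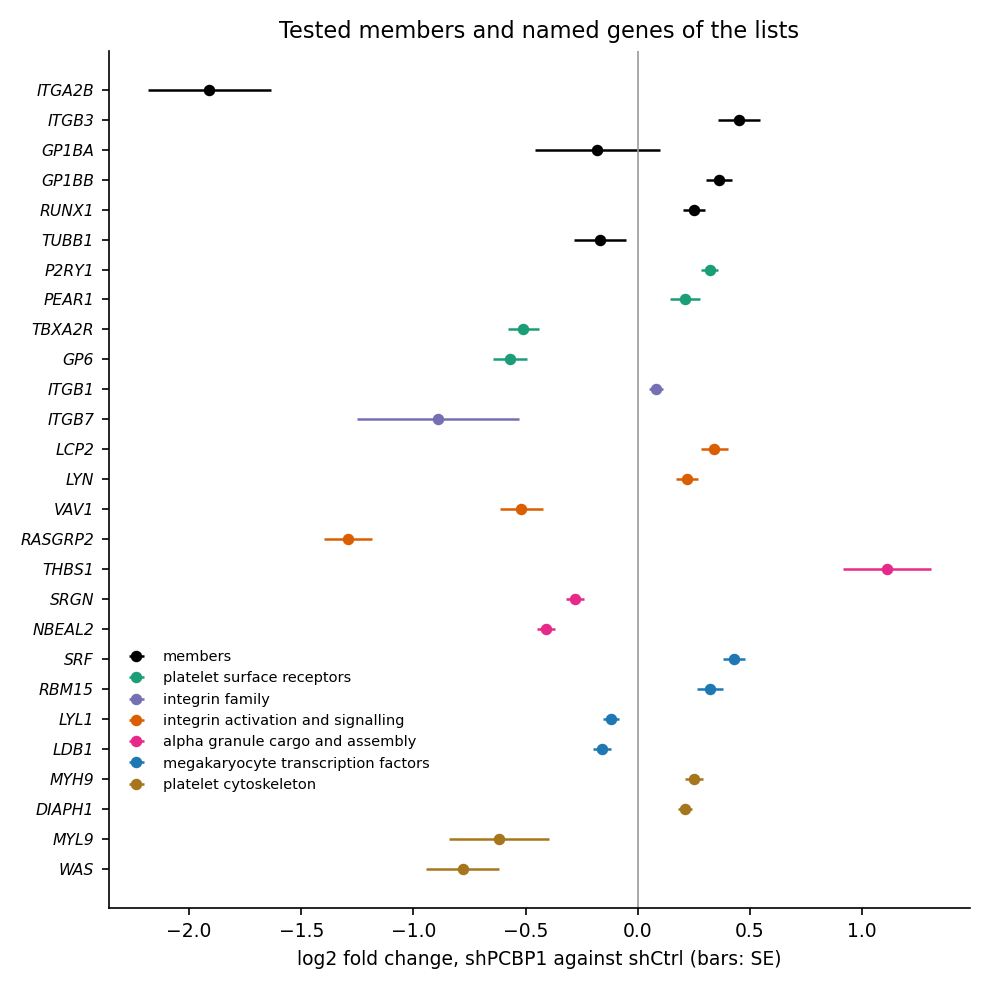
Log2 fold change of shPCBP1 against shCtrl (points) with its SE (bars) for the 6 tested genes around ITGA2B (black) and the named genes of the 6 lists (colours). ITGA2B, at -1.91, lies farthest from 0, followed by RASGRP2 at -1.29 and THBS1 at 1.11.

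Genes of integrin activation and signalling moved most often downward. All 17 were tested, 10 fell (58.8%, against 13.5% of all genes tested) and 4 rose (23.5%, against 17.7%), with a median log2 fold change of -0.19. RASGRP2, the exchange factor that loads RAP1 with GTP ahead of αIIbβ3 activation, was at 15.3, 14.3 and 13.9 TPM in shCtrl and 6.52, 8.14 and 7.35 TPM in shPCBP1, without overlap. It fell by 1.29 on the log2 scale (SE 0.107, DESeq2 adjusted p 8.9e-31). FERMT3 (kindlin-3) and TLN1 (talin-1), which bind the β3 tail, fell by 0.39 (SE 0.0316, DESeq2 adjusted p 3.66e-33) and 0.23 (SE 0.0322, DESeq2 adjusted p 1.11e-11), and they are named here after their values were seen. VAV1, an exchange factor for RAC, fell by 0.52 (SE 0.0957, DESeq2 adjusted p 1.02e-06). LCP2 (SLP-76), an adaptor of platelet signalling, rose by 0.34 (SE 0.0597, DESeq2 adjusted p 3.05e-07) and the kinase gene LYN by 0.22 (SE 0.0486, DESeq2 adjusted p 4.73e-05), although LYN TPM overlapped between groups.

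Among 16 platelet surface receptors, 10 were tested, 3 fell (30%, against 13.5% of all genes tested) and 2 rose (20%, against 17.7%). GP6, the collagen receptor, was at 28.2, 30.9 and 23.4 TPM in shCtrl and 18.1, 18.9 and 17.9 TPM in shPCBP1 and fell by 0.57 (SE 0.0742, DESeq2 adjusted p 5.77e-13). TBXA2R, the thromboxane receptor, fell by 0.51 (SE 0.0681, DESeq2 adjusted p 2.42e-12). P2RY1, an ADP receptor, rose by 0.32 (SE 0.0376, DESeq2 adjusted p 1.42e-15) and PEAR1, a platelet aggregation receptor, by 0.21 (SE 0.0675, DESeq2 adjusted p 0.00906). GP5, P2RY12, SELP and CLEC1B, which mark mature megakaryocytes or platelets, stayed under 0.1 TPM in every library.

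Of 15 alpha granule genes 9 were tested, 4 fell (44.4%, against 13.5% of all genes tested) and 1 rose (11.1%, against 17.7%). NBEAL2, needed for granule formation, fell by 0.41 (SE 0.0394, DESeq2 adjusted p 9.71e-24) and SRGN, the granule proteoglycan, by 0.28 (SE 0.0393, DESeq2 adjusted p 2.03e-11). THBS1 (thrombospondin-1) rose by 1.11 (SE 0.195, DESeq2 adjusted p 1.97e-07), from 0.545, 0.936 and 0.724 TPM to 1.97, 1.59 and 1.62 TPM. PPBP, PF4V1, MMRN1 and F13A1 were under 0.1 TPM in every library.

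The transcription factor list leaned the other way, with 8 higher and 3 lower of 17 tested and a median of 0.04. These were 47.06% and 17.65%, against 17.7% and 13.5% of all genes tested. SRF, the serum response factor, rose by 0.43 (SE 0.0483, DESeq2 adjusted p 3.52e-17) and RBM15 by 0.32 (SE 0.0586, DESeq2 adjusted p 5.92e-07). Genes of the complex that LDB1 forms with TAL1 or LYL1, LMO2 and GATA1 moved in both directions. LDB1 and LYL1 fell by 0.16 (SE 0.0390, DESeq2 adjusted p 0.000345) and 0.12 (SE 0.0353, DESeq2 adjusted p 0.00246), and TAL1 and LMO2, named here after their values were seen, rose by 0.19 (SE 0.0397, DESeq2 adjusted p 2.00e-05) and 0.28 (SE 0.0475, DESeq2 adjusted p 8.77e-08). GATA1 itself stood at -0.07 on the log2 scale (SE 0.0343, DESeq2 adjusted p 0.119), and ERG, like FLI1 an ETS factor, was under 0.1 TPM throughout. All 12 cytoskeletal genes were tested, of which 2 rose (16.7%, against 17.7% of all genes tested) and 4 fell (33.3%, against 13.5%). MYH9 rose by 0.25 (SE 0.0382, DESeq2 adjusted p 2.46e-09) and DIAPH1 by 0.21 (SE 0.0320, DESeq2 adjusted p 2.17e-09). WAS, the actin regulator lost in Wiskott-Aldrich syndrome, fell by 0.78 (SE 0.163, DESeq2 adjusted p 2.15e-05) and MYL9, a myosin light chain, by 0.62 (SE 0.223, DESeq2 adjusted p 0.0215).

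Genes beside ITGA2B were read to see whether the locus moved as a block. Of 5 protein-coding genes within 100 kb, the nearest start site belonged to FAM171A2, 25.8 kb downstream, which fell by 0.44 (SE 0.103, DESeq2 adjusted p 0.000179). GRN (progranulin) at 44.4 kb fell by 0.22 (SE 0.0473, DESeq2 adjusted p 2.15e-05) and SLC25A39, a mitochondrial glutathione carrier, at 64.8 kb fell by 0.18 (SE 0.0391, DESeq2 adjusted p 3.2e-05). RUNDC3A at 81.2 kb, under 1 TPM on average, stood at -0.48 on the log2 scale (SE 0.307, DESeq2 adjusted p 0.243). GPATCH8, whose start lies 113.8 kb upstream and whose body reaches into the window, rose by 0.18 (SE 0.0507, DESeq2 adjusted p 0.00241).

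**Figure D5:**
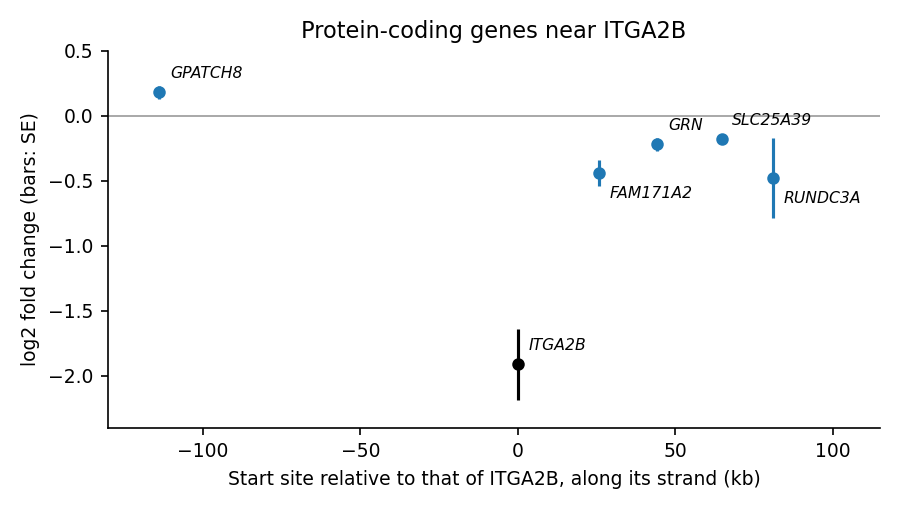
Log2 fold change of shPCBP1 against shCtrl (points) with its SE (bars) for ITGA2B (black) and the 5 protein-coding genes within 100 kb of it (blue), by the distance of the start site along the ITGA2B strand in kb. ITGA2B lies at -1.91 and its neighbours between -0.48 and 0.18.

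Among the 5 genes whose level most resembled that of ITGA2B over the 6 libraries were PGM2L1, NAT8L, APOBR and CCDC116. Each had a Pearson correlation with ITGA2B of at least 0.998 in log2(normalized count + 1) over 6 libraries, a description with no p, as the libraries form 2 groups and the points share their size factors. Their log2 fold changes lay between -0.78 (NAT8L, the N-acetylaspartate synthase) and -0.67 (CCDC116), so they shared the order of the libraries with ITGA2B and not the size of its change.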

How the data were processed

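Poly-A RNA of K562 cells was read in 3 shCtrl and 3 shPCBP1 libraries, grouped by the labels. The authors quantified each library with Salmon 1.10.2 against hg38 transcripts, and the deposited values were estimated counts, TPM and effective lengths per transcript. The submitters' processing notes also name FastQC, MultiQC, STAR 2.7.11b and DESeq2. The annotation release behind the index and the handling of strand were not given in the sources used here. Transcripts were assigned to genes by GENCODE 44, which matched 251612 of 252045, and the unmatched ones held 0.136% to 0.147% of the counts.

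Gene totals of the estimated counts were rounded to whole numbers. Those reaching 10 over the 6 libraries were tested with DESeq2 1.42.0 (R 4.3.3, Wald test, Benjamini-Hochberg adjustment, threshold 0.05), and 17095 genes had an adjusted p. Transcripts were fitted in the same way, where DESeq2 substituted a local dispersion fit, and with edgeR 4.0.16 (quasi-likelihood). On simulated counts the DESeq2 transcript fit called more unchanged transcripts than its threshold allows and edgeR did not, so both are given. TPM shares were compared by a two-sided exact permutation test. Summaries used Python 3.11.15. SE is the standard error of a log2 fold change and intervals are 95%. Limits from a count of 0 cover counting error only.

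The genes and lists were chosen with earlier results of these data known. Besides the 9 genes and PCBP1, the named genes were up to 2 largest rises and 2 largest falls per list among genes with an adjusted p under 0.05 and normalized counts averaging 20 or more, protein-coding genes within 100 kb of ITGA2B and genes overlapping a member, the neighbours of ITGA2B in rank, the 5 protein-coding genes most correlated with it, and up to 4 transcripts per gene with at least 5% of its TPM. Genes named outside this rule are given for their level or as stated. Some genes that the rule or a list holds are not reported here. Alternatives were edgeR, TMM factors, transcript length offsets, other count filters, no independent filtering, protein-coding genes only, the replicate number as a term, and each library left out.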

Additional observations from a re-analysis of the deposited data

How the results depend on the processing

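Over 14 alternatives, the log2 fold change of ITGA2B ranged from -2.16 to -1.73 and that of ITGB3 from 0.40 to 0.54. ITGB3 and GP1BB passed under every alternative run, and GP1BA and TUBB1 under none, with a lowest DESeq2 or edgeR adjusted p of 0.0502 for TUBB1. RUNX1 passed under all but transcript length offsets (0.13). With 1 library left out, 3 of the other member genes rose and 0 fell each time, and list genes that rose numbered 14 to 18 and those that fell 21 to 25. Counts of single transcripts were less stable. Transcripts of other members called higher were 0 with edgeR against 3, and those called lower were 0 against 1 with edgeR, with a mean count of at least 10 and with the replicate block, and 0 to 1 with 1 library left out, being 0 without any of the 3 shCtrl libraries. The cause was not tested. The difference in the RUNX1-202 share was 6.91 percentage points in estimated counts against 6.18 in TPM.

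Replicate numbers did not pair the libraries (correlations of deviations 0.0130, 0.00453 and -0.0285). With the replicate block, 3 other members rose and 0 fell, list genes were 15 higher and 21 lower, and over all genes 2518 rose and 1779 fell. Genes past the threshold and over 1 on the log2 scale numbered 66 higher and 169 lower, 41 and 107 with the block, and 38 to 81 and 91 to 199 with 1 library left out. At this depth GP9, PF4 and FLI1 could not be compared.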
